A study of Mus musculus with 6 samples.

Results

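The MHC class II genes examined here are 6 in number: H2-Aa, H2-Ab1 and H2-Eb1, which encode chains of the peptide-presenting molecules, H2-DMa, Cd74 and Ciita. They were taken as a fixed list of symbols, and every probe set that the array annotation assigns to 1 of these genes alone was used. This gave 14 probe sets of 45037, for 6 of the 18194 genes named on the array. The data are linear MAS5.0 signals of 6 arrays hybridized with RNA of mouse cochlear sensory epithelia (CSE), the strip of hair cells and supporting cells that remains after the lateral wall and the central axis of the cochlea have been dissected away. Untreated Swiss Webster mice of an outbred stock were used at postnatal day 3 (P3) and as adults of 8 weeks, with no allele or agent that differs between the groups. Each array stands for a separate dissection in which the CSE of 20 mice were pooled, with 3 pools at P3 and 3 in the adult, so the spread between arrays is that between pools and not between animals.

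MHC class II molecules are pairs of an alpha and a beta chain that present peptides from internalised proteins to CD4 T lymphocytes. The new pair is held by the invariant chain, Cd74, which fills the peptide groove and guides the complex to the endosome. There cathepsin S trims the invariant chain, and the H2-DM heterodimer, of which H2-DMa is the alpha chain, exchanges the last fragment of it for a peptide. Transcription of these genes depends on Ciita, a coactivator that does not bind DNA itself but is recruited to factors on the X and Y boxes of the promoters. In most tissues class II is carried by dendritic cells, B lymphocytes and macrophages, and resident macrophages are known in the cochlea.

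The arrays differed in quality, and a level of background was therefore set on each array at the 90th percentile of 83 probe sets of smell and bitter taste receptors, taken as not expressed in this tissue. This level was 34.5 on P3 replicate 1, against 6.29 to 16.3 on the other arrays. The ratio of the 3' to the 5' control probe set of Gapdh, a sign of RNA degradation, was 82.0 on P3 replicate 1 and between 0.707 and 2.07 elsewhere. P3 replicate 1 thus stood apart, and values without it are also given where leaving it out changed a call or a direction. The labelled tissue was checked against its markers. Of 9 hair cell genes 5 were measured, among them Myo7a, the myosin of the hair bundle, at 50.4 to 76.3 on the 6 arrays, whereas Slc26a5, the motor protein of outer hair cells, was above background on no array. Of 11 genes of supporting cells 9 were measured, and Gjb2, a connexin of their gap junctions, gave 1804 to 3243 at P3 and 3420 to 6202 in the adult. Sox2 went the other way, at 888 to 1396 at P3 and 149 to 315 in the adult. By the test given below, 2 of the 9 were called higher in the adult and 4 at P3, against 4.58% and 5.54% of all genes. Without P3 replicate 1 these counts were 3 and 5, and Gjb2 was then called (log2 difference of 1.17, limma adjusted p = 0.0398).

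Transcripts of the I-A chains and of the invariant chain were higher in the adult CSE, while H2-Eb1, H2-DMa and Ciita did not pass the test. Of the 6 genes, 3 (H2-Aa, H2-Ab1 and Cd74) were called higher in the adult, and 0 were called higher at P3, where a call asks for a limma adjusted p below 0.05 and a minimum fold of 2. Over all 13743 genes measured at their brightest probe set, 4.58% were called with the adult higher and 5.54% with P3 higher. The median log2 difference, taken as adult minus P3 throughout, was 1.90 over the 6 genes and -0.04 over all genes. All 6 genes passed the filter for testing, a signal over background in 3 or more arrays, but H2-Ab1 passed it on 3 adult arrays and 1 P3 array, so that it was kept through the stage in which it was high. Without P3 replicate 1, 4 genes were called higher in the adult, where the percentage over all genes was 6.04% (and 6.44% at P3). Leaving out P3 replicate 2 or 3 or adult replicate 1 gave a count of 2. With adult replicate 2 or 3 left out the count was 1, Cd74.

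**Figure D1:**
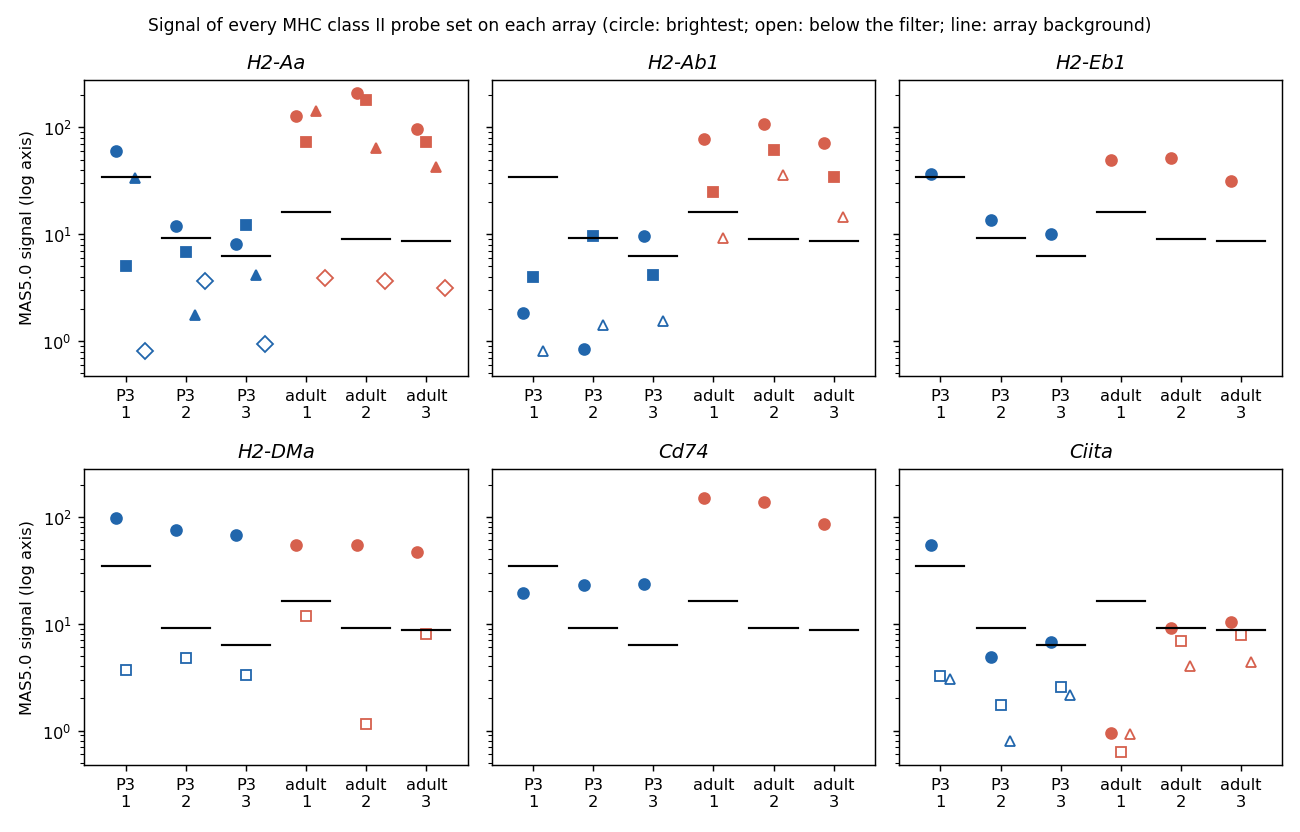
MAS5.0 signal (log axis) of each of the 14 probe sets of the 6 genes on the 3 P3 arrays (blue) and the 3 adult arrays (orange), with the brightest probe set of a gene as a circle, its other probe sets as other shapes, open shapes for those below the filter and a black line at the background level of each array. The adult points of Cd74 lie at 84.8 to 151 and its P3 points at 19.2 to 23.3, while the brightest Ciita probe set lies at 0.0583 to 1.56 times the background of its array.

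H2-Aa, the alpha chain of the I-A molecule, was measured with 4 probe sets, of which 3 were above the filter. The brightest of them gave signals of 60.2, 11.98 and 8.16 at P3 and of 128, 209 and 97.6 in the adult, in the order of replicates 1, 2 and 3 here and below. All 3 adult arrays were above all 3 P3 arrays, and P3 replicate 1 was the highest of its stage. Set against the background of its own array, the P3 signal was 1.30 to 1.74 times that level on all 3 arrays and the adult signal 7.85 to 23.1 times. H2-Aa rose 7.63-fold between geometric means, a log2 difference of 2.93 (SE 0.71, limma adjusted p = 0.0426), and by 3.80 without P3 replicate 1 (adjusted p = 0.00335). The call was lost when any other array was left out, at an adjusted p of 0.101 to 0.122.

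The other probe sets of H2-Aa moved in the same direction. The second by signal, an s probe set, read 5.04, 6.78 and 12.3 on the P3 arrays, of which 1 was above background, and 72.5, 179 and 73.1 on the adult arrays. It was called, with a log2 difference of 3.71 (SE 0.56, limma adjusted p = 0.00703), and stayed called with any single array left out (adjusted p of 0.00863 to 0.0408). With signals raised to the background of their array its difference was 2.64, or 6.25-fold in place of 13.1-fold. The third, an x probe set, was above background on no P3 array and on all 3 adult arrays, at least 5.80-fold higher in the adult, without passing the test (limma adjusted p = 0.0760, and 0.00679 without P3 replicate 1). The last, also an x probe set, lay under background on all 6 arrays. In the names of probe sets x marks probes that can also match other transcripts and s probes shared by related transcripts. The brightest probe set of H2-Aa, given above, is an x probe set, and that of H2-Ab1, given below, an s probe set. Whether signal from a related gene entered the values of either gene was not tested.

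H2-Ab1, the beta chain that pairs with H2-Aa, was also higher in the adult, by a size that depends on how signals under background are treated. Its brightest probe set, an s probe set, gave 1.84, 0.850 and 9.64 at P3 and 78.7, 108 and 71.8 in the adult. The stages did not overlap, and P3 replicate 3 alone was above background at P3. The log2 difference was 5.10 (SE 0.89, limma adjusted p = 0.0131), but its size rests on signals under background. With signals raised to the background level of their array, H2-Ab1 was 5.85-fold higher in the adult, a log2 difference of 2.55 (adjusted p = 0.0135), as against 34.3-fold on the signals as deposited. H2-Aa, whose brightest probe set lay above background on every array, stayed at 2.93 in that setting. Leaving out adult replicate 2 or 3 ended the call (adjusted p = 0.0539 and 0.0733), and with any other array left out the adjusted p was at most 0.0465. A further probe set of H2-Ab1 rose from 5.95 ± 3.27 to 40.2 ± 19.2 (SD, n = 3), with a log2 difference of 2.78 (SE 0.66, limma adjusted p = 0.0395), or 1.54 with signals raised to background. That call was lost without each array other than P3 replicate 1 (adjusted p of 0.0616 to 0.162). The third was above background on 2 adult arrays and no P3 array and was not tested. In all, 5 of the 9 kept probe sets of the 6 genes were called higher in the adult, and 3.39% of all kept probe sets. Of the 9, 4 passed the filter with at most 1 P3 array above background, and 3 of these were among the called, so the count is given as a description.

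H2-Eb1, the beta chain of the I-E molecule, differed less between the stages. Its only probe set gave 36.7, 13.7 and 10.01 at P3 and 50.01, 51.5 and 31.8 in the adult. P3 replicate 1 lay between adult replicates 3 and 1, so the stages overlapped, although on that array the signal was 1.06 times its background. The log2 difference of 1.34 (SE 0.57) did not pass the test (limma adjusted p = 0.199). Without P3 replicate 1 it was 1.89 and passed (adjusted p = 0.0280). The part of the RNA quality of that array in the result was not tested beyond leaving it out.

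The promoters of these genes are shown because class II genes are known to share X and Y boxes, bound by RFX and NF-Y factors, and because the members moved unequally. A search was made in RefSeq windows of 300 bases (GRCm38.p6), from 250 bases before an annotated start to 50 after it. Windows were held for 3 of the 6 genes, H2-Aa, H2-Eb1 and H2-DMa, the last with 2 starts. H2-Aa, called higher in the adult, is at chr17:34287774-34288073 on the minus strand, H2-Eb1 at chr17:34305617-34305916 and the first start of H2-DMa at chr17:34122582-34122881, both on the plus strand. Capitals mark every match, on either strand, of GATTGG (core of the Y box), ACNGATG (core of the X box), GCAAC (a stretch at the left of the X box) and TGACGTCA (the cyclic AMP response element, the form of the X2 box bound by CREB).
H2-Aa: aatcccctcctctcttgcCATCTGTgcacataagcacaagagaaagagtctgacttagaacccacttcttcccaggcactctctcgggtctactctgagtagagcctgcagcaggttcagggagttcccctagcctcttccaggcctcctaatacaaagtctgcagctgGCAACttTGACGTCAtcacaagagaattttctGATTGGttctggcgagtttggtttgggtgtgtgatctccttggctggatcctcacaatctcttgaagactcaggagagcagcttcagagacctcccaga
H2-Eb1: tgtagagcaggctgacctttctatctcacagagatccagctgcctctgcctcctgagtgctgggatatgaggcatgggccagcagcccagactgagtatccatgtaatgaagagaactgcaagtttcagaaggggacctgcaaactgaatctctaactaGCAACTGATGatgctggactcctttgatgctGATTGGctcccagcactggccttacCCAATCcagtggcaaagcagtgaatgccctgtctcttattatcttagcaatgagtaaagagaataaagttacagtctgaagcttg
H2-DMa: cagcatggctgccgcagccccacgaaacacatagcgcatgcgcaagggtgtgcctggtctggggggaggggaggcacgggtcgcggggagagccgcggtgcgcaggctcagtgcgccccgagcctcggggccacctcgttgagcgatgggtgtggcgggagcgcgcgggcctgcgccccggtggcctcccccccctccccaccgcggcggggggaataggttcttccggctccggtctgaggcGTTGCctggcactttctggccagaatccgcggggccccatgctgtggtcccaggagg
GATTGG began 49 bases before the start of H2-Aa and 60 bases before that of H2-Eb1, and H2-Eb1 held it again on the other strand, beginning 35 bases before the start. It was found in 16.1% of all 32851 windows. ACNGATG lay 88 bases before the start of H2-Eb1, where it overlaps GCAAC, and 232 bases before that of H2-Aa, on the other strand and apart from the Y box. It was found in 9.85% of all windows, and both motifs together in 1.52%. GCAAC and TGACGTCA were added after the sequences had been seen. GCAAC followed by GATTGG on the same strand, with 25 to 35 bases between them, occurred in H2-Aa with 27 bases and in H2-Eb1 with 26, and in 0.222% of all windows. GCAAC alone was in 35.2% and TGACGTCA, held by H2-Aa, in 1.79%. Neither window of H2-DMa held that spaced pair, and GATTGG was found only in the second, at chr17:34125268-34125567, 199 bases before that start. No other sequence of H2-DMa was searched, so a missing match holds for these 2 windows and not for the gene. Among other class II genes, the windows of H2-Oa and H2-Eb2 held the spaced pair and those of H2-Ob, H2-DMb1 and H2-DMb2 did not. Both GATTGG and ACNGATG were found in the windows of H2-Oa, H2-Eb2, H2-DMb1 and H2-DMb2, and also in that of H2-D1, a class I gene. The window of H2-Ob held GATTGG without ACNGATG. A match is a description of the letters and not a site shown to be bound.

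**Figure D2:**
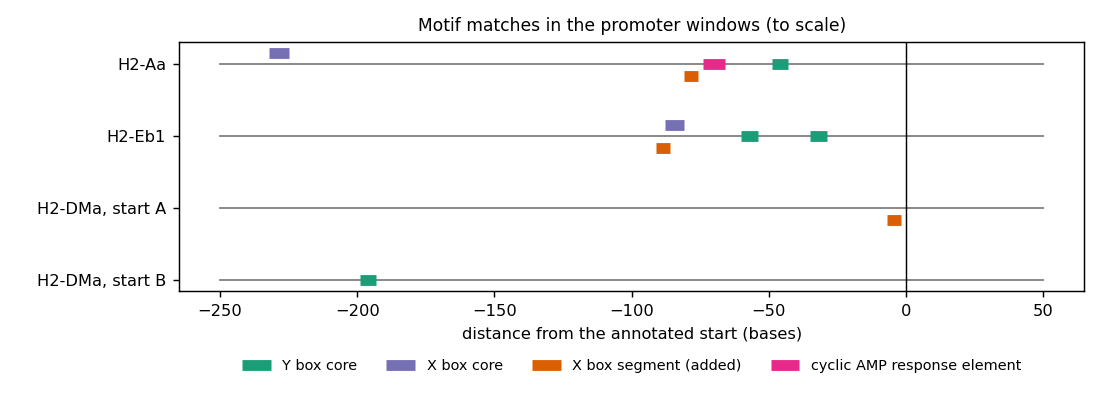
Positions of motif matches, drawn to scale in bases from the annotated start (vertical line), in the windows of H2-Aa, H2-Eb1 and both starts of H2-DMa (A and B), with 1 colour per motif as the legend names them. In H2-Aa and H2-Eb1 the X box segment and the Y box core lie within 91 bases before the start, whereas neither H2-DMa window has both.

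Cd74, the invariant chain, had the smallest SE of the called genes and was the only one called under every array left out. Its probe set gave 19.2, 23.2 and 23.3 at P3 and 151, 137 and 84.8 in the adult. The lowest adult array was above every P3 array, and adult replicate 3 was the lowest adult array here as it was for H2-Aa, H2-Ab1 and H2-Eb1. From 21.9 ± 2.32 at P3, Cd74 rose to 124 ± 35.003 in the adult (SD, n = 3), 5.52-fold between geometric means, with a log2 difference of 2.47 (SE 0.35, limma adjusted p = 0.00595). The signal was above background on P3 replicates 2 and 3 and at 0.557 times background on P3 replicate 1. With single arrays left out the log2 difference was 2.30 to 2.72 and the adjusted p 0.00719 to 0.0264.

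H2-DMa, the alpha chain of the peptide exchange factor, was lower in each adult array than in any P3 array. It gave 96.4, 75.1 and 67.6 at P3 and 54.4, 54.3 and 47.0 in the adult. All 6 arrays were above background. The difference, a log2 difference of -0.61 (SE 0.30, limma adjusted p = 0.258), did not pass the test, and arrays without overlap were as common as 20.4% in that direction and 16.0% in the other over all genes. Of the 6 genes 3 did not overlap and were higher in the adult, and H2-DMa was the 1 that did not overlap and was higher at P3. A second probe set of H2-DMa was under background on all arrays.

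Ciita, the coactivator of class II transcription, was at or near background at both stages. Its brightest probe set gave 54.0, 4.88 and 6.69 at P3 and 0.949, 9.02 and 10.3 in the adult. The stages overlapped, the highest signal came from P3 replicate 1, and no array was over 1.56 times its background. The log2 difference of -1.44 (SE 1.30, limma adjusted p = 0.549) became -0.36 without P3 replicate 1 and -0.32 without adult replicate 1. Its other 2 probe sets were under background on every array, so a change of Ciita was not detectable at these signals.

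**Figure D3:**
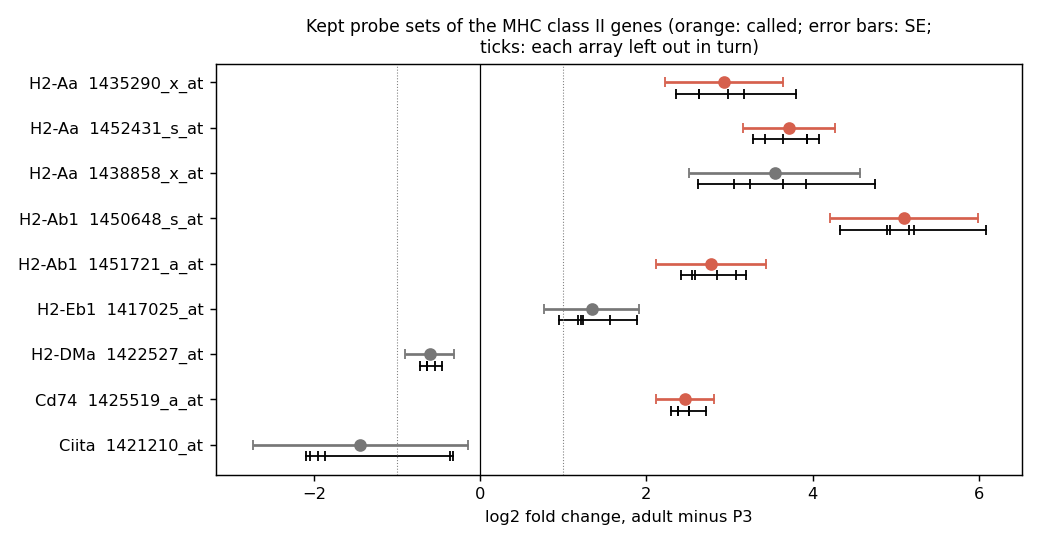
The log2 difference, adult minus P3, of the 9 kept probe sets of the 6 genes, with limma's SE as bars, orange for those called, dotted lines at a fold of 2, and below each point the values with each array left out in turn as ticks on a black line. Cd74 has the narrowest range of the called probe sets, 2.30 to 2.72, and Ciita spans -2.09 to -0.32.

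The unequal change of the members was examined as log2 ratios of signals within an array, which are the same however a whole array is multiplied. These pairs, 10 in all, were chosen after the values had been seen, and with 3 arrays against 3 an exact two-sided permutation test cannot give a p under 0.1 (0.167 when adjusted over the pairs). The ratio of Cd74 to H2-DMa was -2.32, -1.70 and -1.53 at P3 and 1.48, 1.33 and 0.85 in the adult, a difference of 3.07 (SE 0.31, exact p = 0.1). The stages were apart for the ratios of H2-Aa, H2-Ab1 and H2-Eb1 to H2-DMa as well, which differed by 3.54 (SE 0.78), 5.71 (SE 1.12) and 1.95 (SE 0.44), each with an exact p of 0.1. For Cd74, H2-Aa and H2-Ab1 this separation was fixed in advance. Their signals were higher, and that of H2-DMa lower, on every adult array than on any P3 array. The exact p of these ratios therefore adds no evidence of an unequal change. The value for H2-Ab1 rests on P3 signals under background and was 3.15 with signals raised to background and 2.98 with the mean background added. For H2-Eb1 the 3 arrays of the P3 stage separated from the adult in this ratio although they overlapped in its signal. The part of the lower adult signal of H2-DMa in that separation was not tested. The ratio of Ciita to H2-DMa overlapped between the stages (difference of -0.83, SE 1.498, exact p = 0.7).

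Other genes of the class II pathway, 40 in 5 lists, were examined at their brightest probe sets. Of the 31 measured, 1, or 3.23%, was called higher in the adult, against 4.58% of all genes, and 0 at P3. The called gene was Ctss, cathepsin S, which trims the invariant chain. Its signals were 392, 320 and 267 at P3 and 731, 830 and 853 in the adult, without overlap, and the log2 difference was 1.32 (SE 0.22, limma adjusted p = 0.0117). Ctss lost its call when P3 replicate 2 or 3 or adult replicate 3 was left out (highest adjusted p = 0.0716). Of the other endosomal genes, Ctsd, an aspartic protease, differed by 0.82 on the log2 scale (adjusted p = 0.0976) and Ifi30, the thiol reductase that opens disulphide bonds of antigens, one of -0.72 (adjusted p = 0.0982). The median of these 10 genes was 0.15.

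Among the other class II chains, 2 of 6 were measured and neither was called. H2-Ea, an alpha chain that pairs with H2-Eb1, was above background on all 3 adult arrays and on no P3 array, with 22.0, 1.34 and 1.29 at P3 and 30.9, 13.3 and 14.3 in the adult. The stages overlapped through P3 replicate 1, and without it H2-Ea passed the test (log2 difference of 3.78, limma adjusted p = 0.0301). The size of that difference rests on P3 signals under background, and H2-Ea was kept through its adult arrays alone. With all arrays, the lower bound on its fold was 1.43, under the minimum of 2 set for a call. H2-DMb2, a beta chain of H2-DM, gave 1.32, 31.2 and 20.0 at P3 and 19.0, 23.0 and 22.3 in the adult (log2 difference of 1.19, adjusted p = 0.567), and without P3 replicate 1 the difference was -0.23 (adjusted p = 0.743). H2-Oa, H2-Ob and H2-Eb2 did not pass the filter, and H2-DMb1 had no probe set of its own.

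The factors that assemble on class II promoters did not pass the test in either direction. All 7 were measured, with a median log2 difference of -0.27 (-0.09 without P3 replicate 1). Rfx5, a subunit of the RFX complex of the X box, gave 170, 119 and 140 at P3 and 63.3, 81.3 and 85.4 in the adult, without overlap and with a log2 difference of -0.90 (SE 0.27, limma adjusted p = 0.0826). Nfya and Nfyb, subunits of NF-Y, which binds the Y box, did not overlap between the stages either and had log2 differences of -0.47 and -0.62 (adjusted p = 0.346 and 0.194). Arrays without overlap and with P3 higher were thus seen for 3 of the 7, against 20.4% of all genes. With the adult higher they were seen for 0, against 16.0% of all genes. Of 11 genes on the route from interferon gamma to Ciita, 9 were measured and none was called, with a median of 0.00. Irf1, an interferon-induced activator of the Ciita promoter, gave 90.5 to 94.3 at P3 and 111 to 141 in the adult (log2 difference of 0.40, adjusted p = 0.368). Ifngr2, a chain of the interferon gamma receptor, did not pass on all arrays (adjusted p = 0.214) and passed as lower in the adult without P3 replicate 1 (adjusted p = 0.0292). Of 5 co-stimulatory molecules and receptors of class II, 3 were measured and none was called, and Cd4, the coreceptor of T lymphocytes for class II, was above background on no array.

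**Figure D4:**
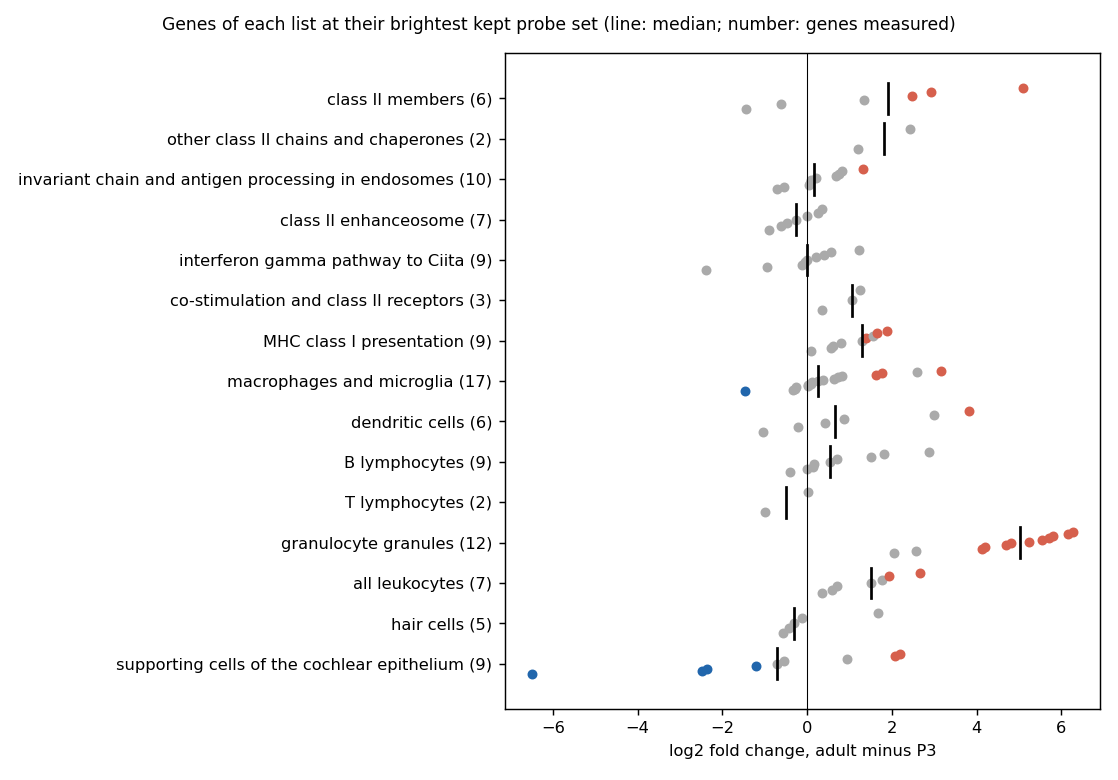
The log2 difference of the stages (adult minus P3, horizontal axis) for the 6 class II genes and for the measured genes of 14 other lists, 1 point per gene at its brightest kept probe set, with a black line at the median of each list. Orange points were called higher in the adult, blue points higher at P3 and grey points were not called. The medians run from -0.72 for supporting cells to 5.02 for granulocyte granules.

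MHC class I presentation, which loads peptides of the cytosol, was higher in the adult in part. Of 9 genes measured, 3 were called, each higher in the adult, against 4.58% of all genes. The stages did not overlap for 7 of the 9, each higher in the adult, against 16.0% of all genes. The median was 1.29 (0.82 without P3 replicate 1). H2-K1 and H2-D1, class I heavy chains, had log2 differences of 1.39 and 1.64 (limma adjusted p = 0.0330 and 0.0254). Tap2, a subunit of the peptide transporter, had one of 1.88 (adjusted p = 0.0235). The count of 3 became 1 without P3 replicate 2 and 0 without P3 replicate 3 or adult replicate 2 or 3. The ratio of Cd74 to H2-K1 within an array overlapped between the stages (difference of 1.08, SE 0.59, exact permutation p = 0.3).

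Markers of the cells that carry class II moved unequally between the stages, and in pooled tissue more such cells and more RNA per cell cannot be told apart. Of 18 macrophage genes 17 were measured, 3 were called higher in the adult and 1 at P3, against 4.58% and 5.54% of all genes. The stages did not overlap for 6 with the adult higher and 1 with P3 higher, against 16.0% and 20.4% of all genes. The median of the 17 was 0.26, and their summed signal was 2061 to 2777 at P3 and 3675 to 5339 in the adult. Lyz2, the lysozyme of myeloid cells, made up 141 to 161 of that sum at P3 and 876 to 2251 in the adult, and the other 16 genes summed to 1900 to 2636 at P3 and 2638 to 3088 in the adult. Csf1r, the receptor that defines the lineage, gave 1110.4, 560 and 622 at P3 and 803, 790 and 621 in the adult, a log2 difference of 0.01 (adjusted p = 0.990). Cd68, a lysosomal protein of macrophages, had a log2 difference of -0.29 (adjusted p = 0.660). Lyz2, and Cd14 and Mertk, receptors of microbial lipid and of dying cells, were called higher in the adult (3.16, 1.77 and 1.63), and Mrc1, the mannose receptor, at P3 (-1.47). Lyz2 kept its call in all 6 fits with an array left out. Cd14 stayed called only without P3 replicate 1 (highest adjusted p = 0.0664), Mertk in 5 of the 6 such fits (highest adjusted p = 0.0524) and Mrc1 in 3 (highest adjusted p = 0.0893), so that leaving out adult replicate 3 left 1 gene called higher, P3 replicate 1 left 3, and each other array left 2. The ratio of Cd74 to Csf1r was apart between the stages, with a difference of 2.46 (SE 0.42, exact permutation p = 0.1), whereas that of Cd74 to Lyz2 overlapped (-0.69, SE 0.49, exact permutation p = 0.4).

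Genes found in all leukocytes were also compared. All 7 were measured and 2 were called, each higher in the adult, against 4.58% of all genes. The stages did not overlap for 4 of the 7, each higher in the adult, against 16.0% of all genes. The median was 1.504 and the summed signal 340.3 to 492 at P3 and 649 to 1541 in the adult. Ptprc, the common leukocyte antigen CD45, gave 38.7, 19.9 and 37.3 at P3 and 86.9, 221 and 81.8 in the adult (log2 difference of 1.92, limma adjusted p = 0.0448). Cd52, a surface glycoprotein of lymphocytes and myeloid cells, had one of 2.66 (adjusted p = 0.0492). Both calls were lost without each array other than P3 replicate 1, and without that array 3 genes were called. The ratio of Cd74 to Ptprc overlapped between the stages (0.54, SE 0.57, exact permutation p = 0.5). The part of leukocyte number in the class II values was not tested.

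Markers of dendritic cells and lymphocytes gave 1 call between them. Of 12 dendritic cell genes 6 were measured and 1 was called, higher in the adult, against 4.58% of all genes. Their median was 0.65 and their summed signal 99.3 to 232 at P3 and 147 to 241 in the adult. Without P3 replicate 1 the median turned to -0.16, and Zbtb46, a transcription factor of conventional dendritic cells, was called higher at P3 (-1.62, limma adjusted p = 0.0219). Flt3, a receptor of dendritic cells and of blood cell precursors, was the 1 gene called on all arrays, with a log2 difference of 3.82 (SE 0.78, limma adjusted p = 0.0232). No P3 array was above background, and with signals raised to background Flt3 was 2.75-fold higher in the adult and was not called (adjusted p = 0.246). On the signals as deposited it lost the call without P3 replicate 3 or any adult array (highest adjusted p = 0.133). Itgax, the integrin CD11c, was above background on adult replicate 2 alone. Of 16 B lymphocyte genes 9 were measured and none was called, with a median of 0.54 (0.96 without P3 replicate 1). The log2 difference was positive for 7 and negative for 2. The stages did not overlap for 2 of the 9, each higher in the adult, against 16.0% of all genes. The summed signal of the 9 was 905 to 1478 at P3 and 885 to 1121 in the adult. Most of that sum was Ebf1, a transcription factor that is not confined to B cells, and the other 8 genes summed to 91.3 to 202 at P3 and 129 to 285 in the adult. Cd79a, a chain of the B cell receptor, gave 49.8, 0.321 and 4.33 at P3 and 16.5, 10.6 and 0.558 in the adult. It was above background on 1 P3 and 2 adult arrays. Of 10 T lymphocyte genes 2 were measured and none was called, with a median of -0.49 that turned to 0.18 without P3 replicate 1, and with summed signals of 16.3 to 68.2 at P3 and 17.4 to 28.9 in the adult, and Cd3e, which defines them, was above background on no array.

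Granule genes of neutrophils and eosinophils differed most. All 12 were measured and 10 were called higher in the adult, against 4.58% of all genes. Without P3 replicate 1, 12 were called, against 6.04%. The median was 5.02 and the summed signal 139 to 455 at P3 and 4047 to 18356 in the adult. Elane, Ctsg, Lcn2, Prg2 and Mmp8 were above background on all 3 adult arrays and on no P3 array. They were thus kept through the stage in which they were high. All of these but Mmp8 were called, and were at least 4.14-fold (Ctsg) to 25.3-fold (Lcn2) higher in the adult. With signals raised to background, 9 of the 12 were called. S100a8, a calcium-binding protein of neutrophils, was highest on adult replicate 2, which was also the highest adult array of H2-Aa, H2-Ab1 and Ptprc, while Cd74 was highest on adult replicate 1. The ratio of Cd74 to S100a8 was lower in the adult on every array, with a difference of -3.33 (SE 0.61, exact permutation p = 0.1). The part of blood or marrow cells in the class II values was not tested.

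**Figure D5:**
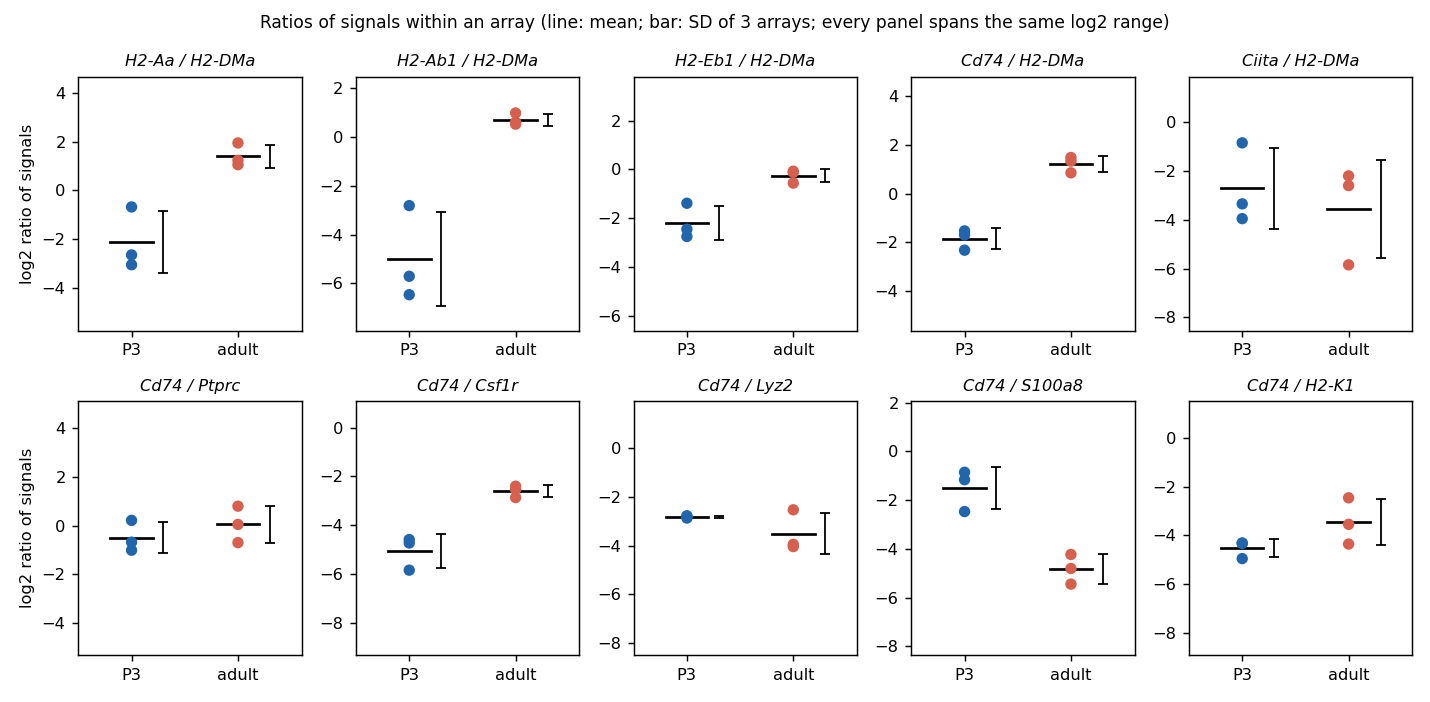
Log2 ratio of the signals of 2 genes within an array for the 10 pairs compared, with 3 points per stage, the mean as a line and the SD as a bar, on vertical axes of equal length. The stages are apart for the ratios of H2-Aa, H2-Ab1, H2-Eb1 and Cd74 to H2-DMa and of Cd74 to Csf1r and S100a8, and overlap for the other 4.

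The genes whose pattern over the 6 arrays was most like the mean log2 signal of the 6 class II genes were Rexo2, Pgp, Cd52, Parm1 and Fbxo9, with Pearson's r of 0.996, 0.994, 0.994, 0.993 and 0.985 among 13737 genes. An r over 0.95 was reached by 87 genes, so the 5 are the top of a longer list. The mean takes in Ciita, which was at or near background, and H2-DMa, which was lower in the adult. The likeness covers both the stages and the order of arrays within them, including the high P3 replicate 1, and is a description over 6 arrays. Cd52, the only leukocyte gene of the 5, gave 88.6, 14.4 and 20.9 at P3 and 131, 346 and 148 in the adult. Parm1, a mucin-like membrane protein, was called higher in the adult (log2 difference of 1.29, limma adjusted p = 0.0360), and Rexo2, an oligoribonuclease, was not (0.85, adjusted p = 0.0906).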

How the data were processed

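Gene expression was measured in 3 P3 and 3 adult CSE pools on Affymetrix whole-genome arrays of the mouse. The deposited values are signal intensities that the authors computed with MAS5.0, scaled to the same trimmed mean on every array (100 after leaving out 2% at each end). GCOS is given as version 1.2 in the submitters' processing notes and as another version in the methods. The signals were used as deposited, and detection calls were not used here. Stages came from the sample titles, and 0 array columns were left unmatched. Of 45101 probe sets 64 are controls, and by an annotation of 2016, 34945 name 1 gene, 932 several and 9160 none.

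A probe set was kept if 3 or more of the 6 arrays were over background (29036). Log2 signals were compared by linear models of stage alone, with moderated variances that follow the mean signal (limma 3.58.1, R 4.3.3), with Benjamini-Hochberg adjustment over all kept probe sets and a minimum fold of 2. SE is limma's for fold changes and that of a difference of means for ratios. The brightest kept probe set stands for a gene. A fold is a lower bound if no array of the lower stage was over background. Precision is limited by how few arrays there are. The methods' SAM test, with 20 relabellings, was an alternative, as limma was preferred for groups of 3. Other alternatives were quantile or median scaling, other signal filters, floored or background-added signals, eBayes without the trend, array quality weights, the replicate number as a block, the mean over probe sets and each array left out. The fit was tested on simulated data drawn with the spread of the adult arrays. That simulation did not take in the spread of the P3 arrays or the quality of P3 replicate 1.

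The class II genes, the lists, the tests and the motifs were chosen with earlier results of these data known. The text names every class II gene, any gene of a list of up to 12, in longer lists the first 2 and up to 4 called of largest change with 1 called the other way, and the 5 genes of highest correlation with the mean class II profile. The pairs for ratios, GCAAC, TGACGTCA and the spacing were added after the values or sequences were seen.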

Additional observations from a re-analysis of the deposited data

How the results depend on the processing

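Under the 12 alternatives that keep all arrays, Cd74 and H2-Ab1 stayed called and H2-DMa uncalled, each in the same direction, although with array quality weights H2-DMa had an adjusted p of 0.0208 at a fold under 2. H2-Aa was not called with arrays scaled to the same median (log2 difference of 2.95, adjusted p = 0.0519) or without the intensity trend (2.93, adjusted p = 0.102). With array quality weights, under which 7593 probe sets were called in place of 2109, H2-Eb1 was called (1.46, adjusted p = 0.00339) and Ciita turned to 0.52 (adjusted p = 0.564). Ciita had no value under the filter on all 3 arrays of a stage. The number called was 562 with the same median, 899 without the trend, and 946, 916 and 576 without P3 replicates 2 and 3 and adult replicate 3. The causes were not tested.

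With each array left out in turn, the log2 differences were 2.36 to 3.80 for H2-Aa, 4.33 to 6.08 for H2-Ab1, 0.95 to 1.89 for H2-Eb1, -0.72 to -0.46 for H2-DMa, 2.30 to 2.72 for Cd74 and -2.09 to -0.32 for Ciita, with 1 to 4 of the 6 genes called and a median of 1.66 to 2.14. The counts called higher in the adult were then 0 to 1 for the other class II chains, 0 to 1 for endosomal genes, 0 to 4 for class I, 1 to 3 for macrophages, 0 to 1 for dendritic cells, 9 to 12 for granule genes, 0 to 3 for leukocytes and 1 to 3 for supporting cells. Those higher at P3 were 0 to 1 for macrophages, dendritic cells and the interferon gamma route and 3 to 5 for supporting cells.

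With the same median, the counts higher in the adult were 0 for endosomal genes, class I, dendritic cells and leukocytes and 1 for macrophages and for supporting cells, with 0 macrophage genes higher at P3. Without the trend they were 0 for endosomal genes, class I and leukocytes and 1 for supporting cells, with 0 macrophage genes higher at P3. Array quality weights gave 1 other class II chain, 2 endosomal and 2 dendritic cell genes higher in the adult, and 1 interferon gamma, 2 macrophage and 2 dendritic cell genes higher at P3. The mean over probe sets gave 2 endosomal genes. Dendritic cell genes were 0 with floored signals and 2 with background added or by SAM, which also called 1 B lymphocyte gene, and leukocyte genes were 1 with quantile normalization.

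Neither the sample titles nor the methods say that the replicate number pairs a P3 pool with an adult pool, and the main test used no pairing. Same-numbered arrays had deviations correlated at 0.18, 0.21 and 0.08, each the best match of its array, as a hint from the data. With the replicate number as a block the 3 class II calls stayed (adjusted p = 0.0283 for H2-Aa, 0.0168 for H2-Ab1 and 0.00995 for Cd74), 2649 probe sets were called and leukocyte genes were 1 in place of 2.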
